A study of Mus musculus with 24 samples.

Results

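The genes described here are 10 regulators of the step from G1 into S phase of the cell cycle: the D-type cyclins Ccnd1 and Ccnd2, the E-type cyclins Ccne1 and Ccne2, the cyclin-dependent kinase (CDK) inhibitors Cdkn1a, Cdkn1b, Cdkn2a and Cdkn2b, and the p53 targets Mdm2 and Ccng1. They were selected by name, as the rows of the count and TPM tables that carry these symbols, and make up 10 of the 49315 genes in the tables. All 10 passed the filter on low counts that left 17216 genes for testing. They were measured by RNA sequencing of mouse liver tissue in 4 groups of 6 libraries. Tumour-bearing livers (tumour livers) came from wild-type or Mdr2-/- mice given AKT and YAP1 by transposon integration, a model of cholangiocarcinoma, which is a cancer of the bile duct lining, and control livers came from wild-type or Mdr2-/- mice that had received an empty vector. Mdr2-/- mice lack Abcb4 (also called Mdr2), the transporter that moves phospholipid into bile, and their control livers therefore carry the deletion without AKT and YAP1. The labels used here do not give the age, sex or strain of the mice, or the promoter that drives AKT and YAP1. They also do not say that each library is a separate animal, so that p-values measure the spread between these libraries. Whole tissue was profiled, so fewer cells of a type and less RNA per cell cannot be told apart.

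In the textbook scheme, growth signals raise D-type cyclins, which activate CDK4 and CDK6, and E-type cyclins then activate CDK2. Both kinase pairs phosphorylate the retinoblastoma protein and release E2F transcription factors, which switch on genes for DNA replication. The Ink4 inhibitors encoded by Cdkn2a and Cdkn2b block CDK4 and CDK6, and the Cip/Kip inhibitors encoded by Cdkn1a (p21) and Cdkn1b (p27) bind cyclin and CDK complexes, chiefly those of CDK2. The p53 protein induces Cdkn1a, Mdm2 and Ccng1 after stress, and the Mdm2 protein in turn sends p53 for degradation. In the liver Ccnd1 is known as the cyclin that rises when resting hepatocytes re-enter the cycle, and it is also expressed in proliferating bile duct cells.

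Total counts were 20976459 to 30288385 per library, and a gene at 1 CPM (counts scaled to library size, here after TMM scaling) rested on 16.4 to 34.2 counts. Abcb4, the gene deleted in Mdr2-/- mice, averaged 285 ± 49.8 CPM (SD, n = 6) in the wild-type controls and 32.6 ± 6.81 CPM (SD, n = 6) in the Mdr2-/- controls, a log2 difference of -3.13 ± 0.23 (SE, adjusted p = 2.43e-10). Akt1 rose in the tumour livers of both genotypes, by a log2 fold change of 1.51 ± 0.26 in wild type and 0.90 ± 0.25 in Mdr2-/-, although Mdr2-/- tumour replicate 1 had 44.9 CPM of Akt1, below the Mdr2-/- controls at 49.0 to 64.4 CPM. Yap1 fell in Mdr2-/- tumour livers by 0.51 ± 0.15 on the log2 scale (adjusted p = 0.0137), and its tumour effect in wild type was -0.12 ± 0.15 (adjusted p = 0.6). Tumour-bearing replicate 1 of the Mdr2-/- mice and tumour replicate 6 of the wild-type mice stood apart from their groups on a principal component each. The summed level of 10 cholangiocyte markers was 68.2 to 139.9 CPM in the wild-type controls, 167 to 1391 CPM in the wild-type tumour livers, 85.0 to 344 CPM in the Mdr2-/- controls and 1113 to 4021 CPM in the Mdr2-/- tumour livers. Of 9 hepatocyte markers, 6 fell with tumours in each genotype. Over all genes tested below, 17.0% were called lower with tumours in Mdr2-/- and 11.5% in wild type. No marker of either list was at 0 across a group. The share of counts taken by 7 nuclear non-coding RNAs, a list formed after these data had been seen, had a median of 4.41% in the wild-type controls, 5.94% in the wild-type tumour livers, 3.17% in the Mdr2-/- controls and 6.05% in the Mdr2-/- tumour livers. Its range did not overlap between the 2 Mdr2-/- groups (1.74 to 4.29% against 4.60 to 7.95%), so that group and nuclear RNA share cannot be told apart there. The part of these cell type and RNA shares in the results below was not tested beyond the fits that include the nuclear RNA share. Sample titles were numbered below 2000 in 5 of 6 wild-type controls and 0 of 6 wild-type tumour livers. In Mdr2-/- mice they were so in 4 of 6 controls and 3 of 6 tumour livers. The labels give no meaning for these numbers, and in wild type the number range can hardly be told apart from the group.

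The study compared tumour-bearing with control livers in each genotype. A gene was called at an adjusted p below 0.05 (edgeR's quasi-likelihood test with Benjamini-Hochberg adjustment over all 17216 genes). With tumours in Mdr2-/- mice, Cdkn1b, Cdkn2a, Cdkn2b and Ccng1 rose and Ccnd1 fell. These 5 of 10 genes stand beside 34.8% of all tested genes called in that comparison, 17.9% higher and 17.0% lower. With tumours in wild-type mice, Ccne1, Cdkn1a, Cdkn2a, Cdkn2b and Ccng1 rose and none of the 10 fell. This stands beside 28.4% of all genes called, 16.9% higher and 11.5% lower. Cdkn2a passed the filter only through tumour livers. Without it, 3 of 9 members were higher and 1 lower in Mdr2-/-, and 4 of 9 higher in wild type.

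The tumour effect itself differed between the genotypes for 4 of the 10 genes, beside 25.3% of all genes (11.9% higher and 13.4% lower in Mdr2-/- than in wild type). It was lower in Mdr2-/- for Ccnd1, Ccne1 and Cdkn1a and higher for Cdkn1b. In control livers, Mdr2-/- mice had higher Ccnd1, Ccnd2, Ccne1, Cdkn1a and Cdkn2b and lower Cdkn1b than wild-type mice. That is 6 of 10, in a comparison that called 50.5% of all genes, 26.2% higher and 24.3% lower. Between the tumour livers of the 2 genotypes 0 of the 10 genes were called, beside 11.1% of all genes by edgeR. DESeq2 called 1 member there beside 2503 genes in all, and limma voom 3 members beside 4120 genes. At an unadjusted p under 0.05 edgeR gave 2 of the 10. The tumour effect in Mdr2-/- mice and the genotype effect in controls share the Mdr2-/- control libraries, so a level that is high in those 6 libraries enters both with opposite sign. Likewise the tumour effect in wild type and the genotype effect in controls share the 6 wild-type control libraries. A level that is low in these enters both as a rise, so the 2 are not separate observations. Without the 2 libraries that stood apart, the members called were 5, 5, 3, 7 and 1 in the order of the comparisons given here. All genes called were then 6019, 5222, 2928, 9347 and 2702, in place of 5995, 4891, 4355, 8690 and 1917.

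By role, 1 of 4 cyclins was called in each tumour comparison, Ccnd1 lower in Mdr2-/- and Ccne1 higher in wild type. Cdkn2a was called in both, but it passed the filter on low counts only through 6 tumour livers, so a gene kept in this way had to differ and it is left out of the counts that follow. Of the other 3 CDK inhibitors 2 rose in each, Cdkn1b and Cdkn2b in Mdr2-/- and Cdkn1a and Cdkn2b in wild type. Cdkn2b met the filter's cutoff in 0 wild-type controls, 5 wild-type tumour livers, 4 Mdr2-/- controls and 6 Mdr2-/- tumour livers. With only the 12 wild-type libraries it was not tested. Of the 9 members without Cdkn2a, 4 were called in each tumour comparison. In control livers 3 of 4 cyclins were higher in Mdr2-/- than in wild type, together with Cdkn1a and Cdkn2b, while Cdkn1b was lower. The median log2 fold change of the 3 inhibitors was 0.89 with tumours in Mdr2-/- and 2.28 with tumours in wild type, and that of the 4 cyclins 0.34 and 0.38. Over all tested genes these medians were 0.04 and 0.03. The members are few, and an excess over the shares of all genes was not tested.

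**Figure D1:**
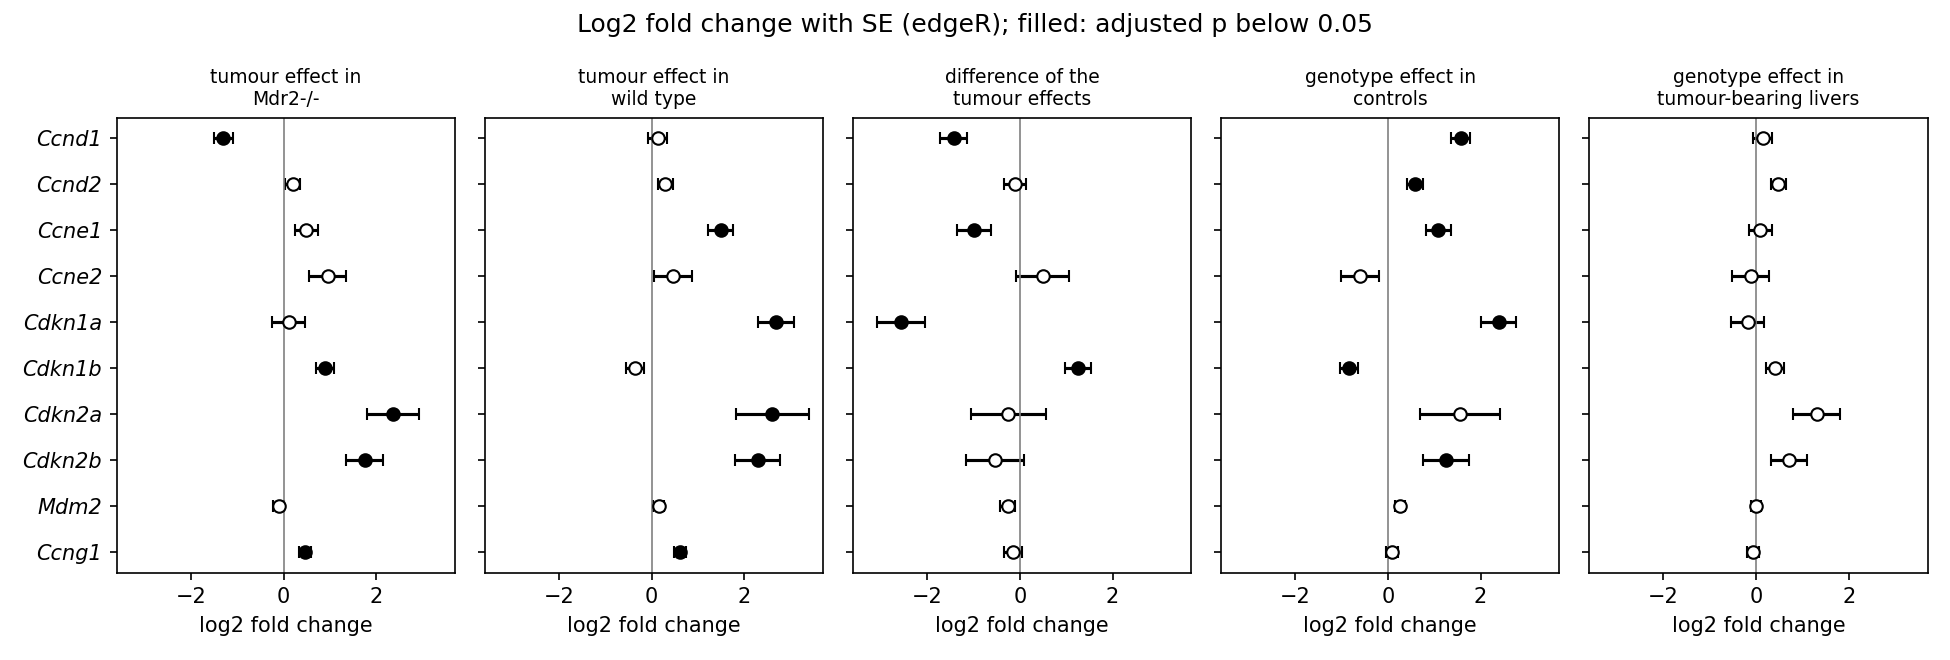
Log2 fold changes (horizontal axis) of the 10 genes with their SE in the 5 comparisons, from 1 edgeR model over 24 libraries, with filled points for an adjusted p below 0.05. Cdkn2a and Cdkn2b lie right of 0 in both tumour panels, Ccnd1 lies at -1.30 with tumours in Mdr2-/- and at 1.57 between the controls, and no point is filled in the panel of tumour livers.

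Ccnd1 (ENSMUSG00000070348) encodes cyclin D1, the regulatory partner of CDK4 and CDK6. Its level was 80.9, 97.0 and 155 CPM (lowest, median and highest of 6 libraries) in the wild-type controls and 84.6, 113 and 159 CPM in the wild-type tumour livers. It was 182, 313 and 444 CPM in the Mdr2-/- controls and 94.5, 124 and 175 CPM in the Mdr2-/- tumour livers. The Mdr2-/- controls thus stood above all 18 other libraries, and the other groups overlapped with one another. Ccnd1 was higher in Mdr2-/- than in the wild-type controls by a log2 fold change of 1.57 ± 0.21 (SE, adjusted p = 2.25e-06) and fell with tumours in Mdr2-/- by 1.30 ± 0.21 on the log2 scale (adjusted p = 0.00011). In wild-type mice the tumour effect was 0.13 ± 0.21 (adjusted p = 0.686), and the difference of the 2 tumour effects was -1.42 ± 0.29 (adjusted p = 0.00157). Between the tumour livers the genotype difference was 0.14 ± 0.21 (adjusted p = 0.726). With the nuclear RNA share in the model, the fall in Mdr2-/- was -0.68 with an adjusted p of 0.0654.

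Ccnd2 (ENSMUSG00000000184) encodes cyclin D2, which binds the same kinases. It lay at 16.8, 25.6 and 30.0 CPM in the wild-type controls, 21.0, 30.9 and 36.9 CPM in the wild-type tumour livers, 30.4, 37.7 and 41.9 CPM in the Mdr2-/- controls and 26.5, 42.3 and 54.1 CPM in the Mdr2-/- tumour livers. The 2 control groups did not overlap, and all other neighbouring groups did. Ccnd2 was higher in Mdr2-/- than in the wild-type controls by 0.58 ± 0.17 on the log2 scale (adjusted p = 0.00521), and by 0.89 when scaled by total counts alone. Its tumour effect was 0.19 ± 0.16 in Mdr2-/- (adjusted p = 0.36) and 0.29 ± 0.17 in wild type (adjusted p = 0.19), and the difference of the 2 was -0.10 ± 0.23 (adjusted p = 0.778). Among tumour livers the genotype difference was 0.48 ± 0.16 (adjusted p = 0.0567), a value that passed the threshold in 9 of 14 other fits and without any one of 4 libraries (Mdr2-/- tumour replicate 1, wild-type tumour replicates 3 and 6, and wild-type control replicate 3). Of the 2 D cyclins, both of which were higher in Mdr2-/- controls, Ccnd1 fell with tumours in that genotype and Ccnd2 did not pass the test. The difference between the 2 genes was not tested.

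**Figure D2:**
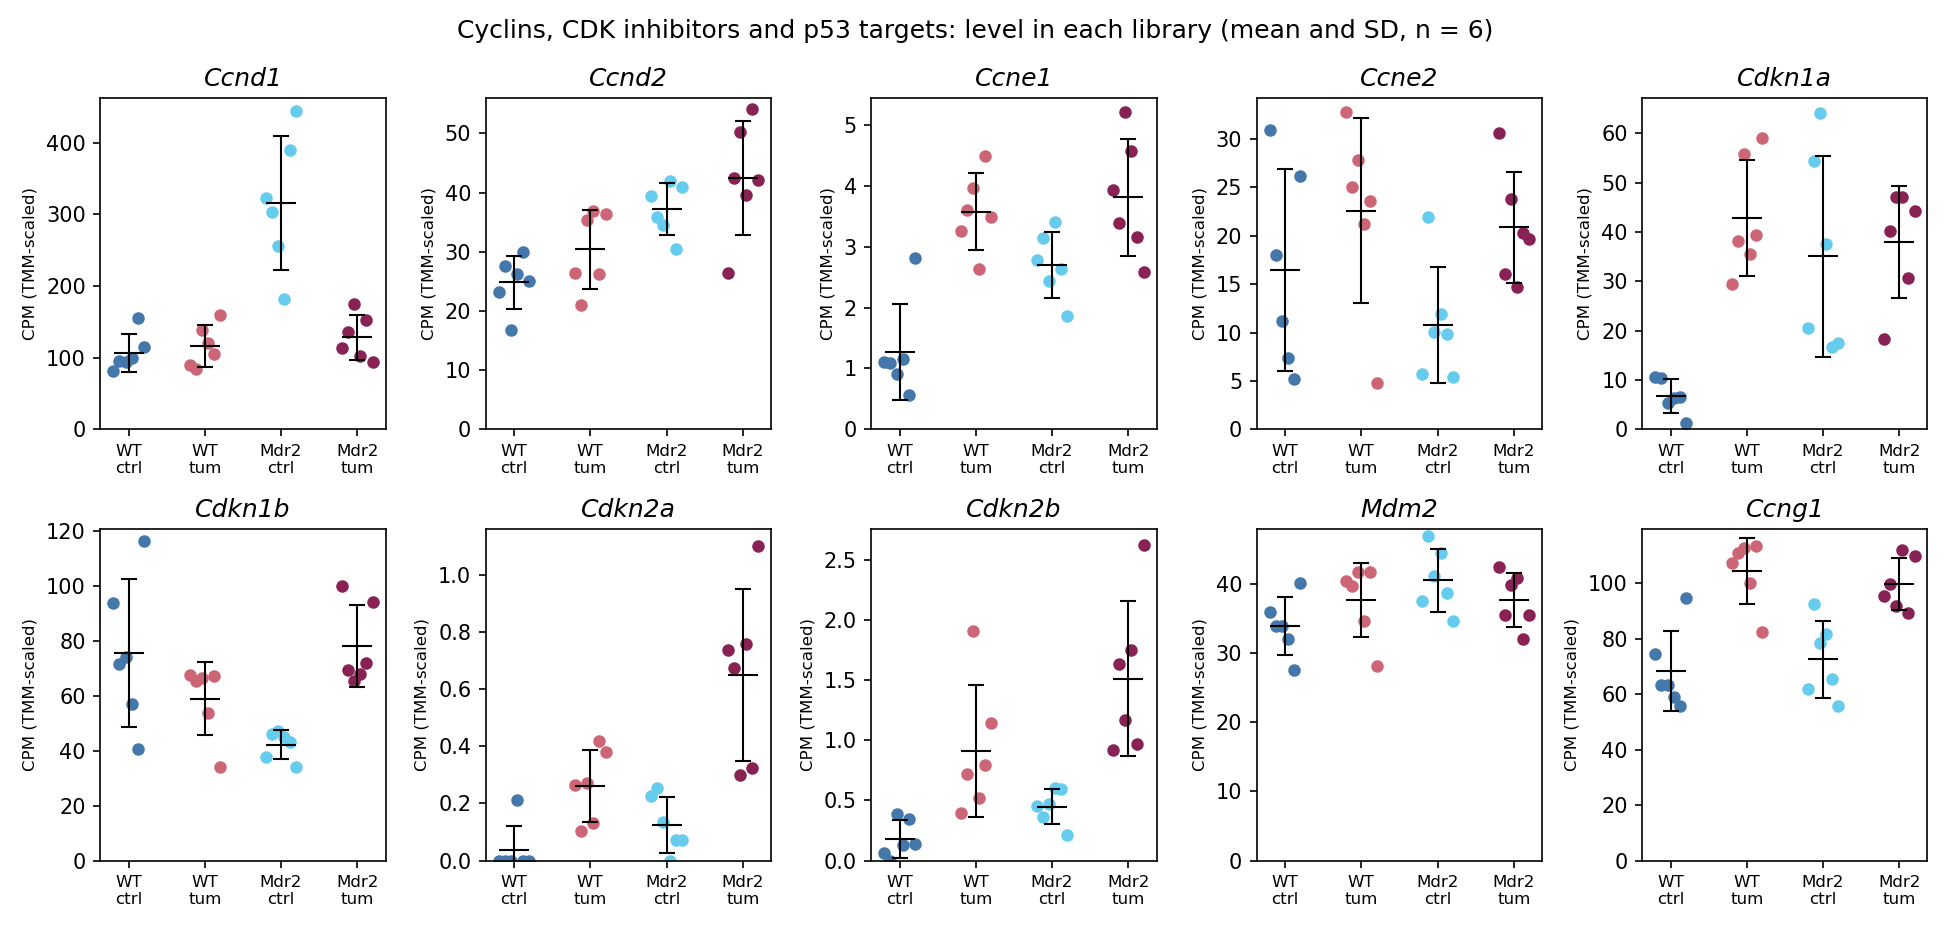
Level of each gene in CPM (vertical axis, from 0) in every library of the 4 groups, wild-type (WT) and Mdr2-/- (Mdr2) controls (ctrl) and tumour livers (tum), with mean and SD of 6 libraries. Ccnd1 is highest in the Mdr2-/- controls at 182 to 444 CPM, Cdkn1a is lowest in the wild-type controls at 1.36 to 10.5 CPM, and Cdkn2a and Cdkn2b are highest in the Mdr2-/- tumour livers.

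Ccne1 (ENSMUSG00000002068) and Ccne2 (ENSMUSG00000028212) encode cyclins E1 and E2, the partners of CDK2. Ccne1 was scarce, with 0.567, 1.10 and 2.82 CPM in the wild-type controls, 2.64, 3.55 and 4.50 CPM in the wild-type tumour livers, 1.86, 2.71 and 3.41 CPM in the Mdr2-/- controls and 2.59, 3.67 and 5.21 CPM in the Mdr2-/- tumour livers. In wild-type controls 5 libraries lay at or below 1.15 CPM, and replicate 6, at 2.82 CPM, overlapped with the other groups. Ccne1 rose with tumours in wild type by 1.49 ± 0.27 on the log2 scale (adjusted p = 0.000202) and was higher in Mdr2-/- than in the wild-type controls by 1.09 ± 0.27 (adjusted p = 0.0018). With tumours in Mdr2-/- its log2 fold change of 0.49 ± 0.25 did not pass the test (adjusted p = 0.123), and between tumour livers the difference was 0.09 ± 0.25 (adjusted p = 0.869). The difference of the tumour effects, -0.99 ± 0.37, was called at an adjusted p of 0.047, next to the threshold. It was no longer called without any one of 18 of the 24 libraries. It was also lost in 4 other edgeR fits. These had upper-quartile factors (adjusted p = 0.0758), the stricter filter (0.0549), the title number range as a covariate (0.0846), or lacked the 2 libraries that stood apart (0.0758).

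Ccne2 varied widely between libraries of a group. It spanned 5.23 to 31.0 CPM with a median of 14.6 in the wild-type controls, 4.83 to 32.8 CPM with a median of 24.3 in the wild-type tumour livers, 5.38 to 21.9 CPM with a median of 9.93 in the Mdr2-/- controls and 14.7 to 30.6 CPM with a median of 20.0 in the Mdr2-/- tumour livers. All 4 ranges overlapped, and Ccne2 was called in none of the 5 comparisons. The log2 fold change nearest to the threshold was 0.95 ± 0.40 with tumours in Mdr2-/- (adjusted p = 0.0678), which passed in 6 of 14 other fits and without Mdr2-/- control replicate 2 or wild-type tumour replicate 6. With the nuclear RNA share in the model the same effect was -0.38, opposite in sign and not called. In wild type the tumour effect of Ccne2 was 0.46 ± 0.40 (adjusted p = 0.423) and between controls the genotype effect was -0.61 ± 0.41 (adjusted p = 0.215).

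Per unit length, in the authors' TPM, Ccne2 exceeded Ccne1 in all 24 libraries. The ratio of Ccne2 to Ccne1 TPM was 4.91, 8.23 and 21.5 in the wild-type controls, 1.06, 5.31 and 7.68 in the wild-type tumour livers, 1.55, 2.75 and 5.31 in the Mdr2-/- controls and 2.45, 4.23 and 5.92 in the Mdr2-/- tumour livers. The median ratio was highest in the wild-type controls, whose median Ccne1 level was lowest, and the lowest single ratio was that of wild-type tumour replicate 6.

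Cdkn1a (ENSMUSG00000023067) encodes p21, the inhibitor through which p53 halts the cell cycle. It lay at 1.36, 6.42 and 10.5 CPM in the wild-type controls and 29.5, 38.7 and 59.0 CPM in the wild-type tumour livers. In Mdr2-/- mice it lay at 16.8, 29.0 and 64.0 CPM in controls and 18.4, 42.2 and 47.2 CPM in tumour livers. Every library of the other 3 groups was above every wild-type control, and those 3 groups overlapped. The Mdr2-/- controls were spread widely, with replicates 1, 5 and 6 at 20.5, 16.8 and 17.4 CPM and replicates 2, 3 and 4 at 54.4, 64.0 and 37.5 CPM. Cdkn1a rose with tumours in wild type by 2.68 ± 0.38 on the log2 scale (adjusted p = 1.42e-05) and was higher in Mdr2-/- than in the wild-type controls by 2.39 ± 0.38 (adjusted p = 2.15e-05). Its tumour effect in Mdr2-/- was 0.11 ± 0.36 (adjusted p = 0.826), and the difference of the 2 tumour effects was -2.57 ± 0.52 (adjusted p = 0.00136). In tumour livers the genotypes differed by -0.18 ± 0.35 (adjusted p = 0.817). The 3 calls for Cdkn1a held in each other fit and without each of the 24 libraries.

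Cdkn1b (ENSMUSG00000003031) encodes p27, an inhibitor known to be abundant in resting cells. It lay at 40.5, 72.8 and 116 CPM in the wild-type controls and 33.8, 65.7 and 67.5 CPM in the wild-type tumour livers. In Mdr2-/- mice it lay at 33.9, 44.1 and 47.0 CPM in controls and 65.2, 70.6 and 99.9 CPM in tumour livers. The 2 Mdr2-/- groups did not overlap, and the 2 wild-type groups did. Cdkn1b rose with tumours in Mdr2-/- by 0.89 ± 0.20 on the log2 scale (adjusted p = 0.00208) and had a log2 difference of -0.84 ± 0.20 between Mdr2-/- and wild-type controls (adjusted p = 0.00124). The wild-type tumour effect was -0.36 ± 0.20 (adjusted p = 0.18), the difference of the tumour effects was 1.25 ± 0.28 (adjusted p = 0.00308), and the tumour livers differed by 0.41 ± 0.20 (adjusted p = 0.203). The Mdr2-/- tumour effect was 0.18 with the nuclear RNA share in the model (adjusted p = 0.613), and the genotype effect in controls was -0.30 on the log2(TPM + 1) scale (limma, adjusted p = 0.147). The difference of the tumour effects was called in each other fit and without each library.

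The ratio of an inhibitor to cyclin D1 within a library sets these genes side by side on the TPM scale. The ratio of Cdkn1a to Ccnd1 was 0.0252, 0.128 and 0.275 in the wild-type controls and 0.63, 0.790 and 0.954 in the wild-type tumour livers, without overlap. In Mdr2-/- it was 0.0832, 0.257 and 0.529 in controls and 0.345, 0.601 and 0.992 in tumour livers, with overlap. For Cdkn1b the order of the groups was another. The ratio of Cdkn1b to Ccnd1 was 0.270, 0.797 and 1.20 in the wild-type controls and 0.220, 0.577 and 0.797 in the wild-type tumour livers. It was 0.0789, 0.139 and 0.256 in the Mdr2-/- controls, below every wild-type control and every Mdr2-/- tumour liver, which had 0.385, 0.610 and 1.03. The ratio of Ccnd2 to Ccnd1 was also lowest in the Mdr2-/- controls, at 0.0392, 0.0603 and 0.115, against 0.117, 0.168 and 0.223 in the Mdr2-/- tumour livers. In wild type it was 0.0896, 0.120 and 0.146 in controls and 0.115, 0.126 and 0.154 with tumours, 2 ranges that overlapped.

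**Figure D3:**
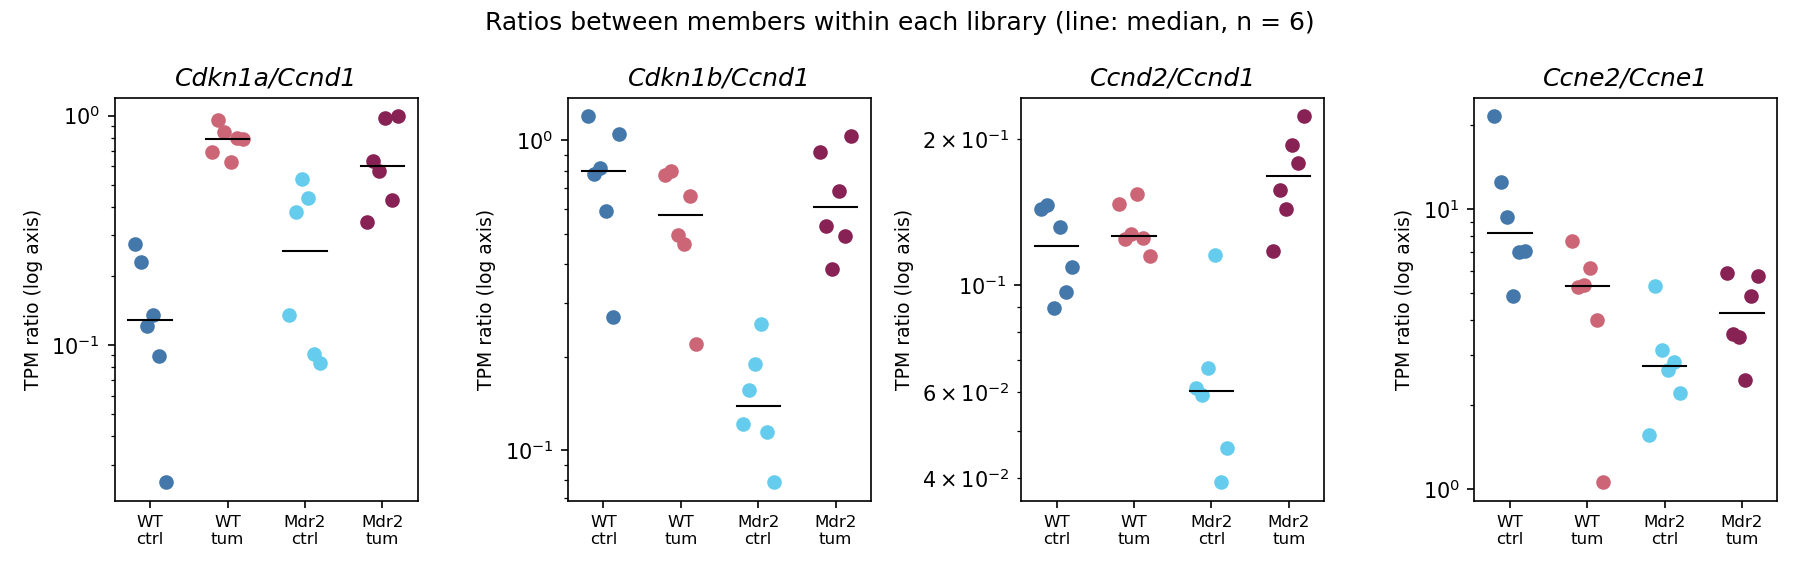
Ratio of the TPM values of 2 genes within each library (vertical log axis) in the 4 groups, with a line at the median of 6 libraries. The Mdr2-/- controls have the lowest Cdkn1b to Ccnd1 and Ccnd2 to Ccnd1 ratios, with medians of 0.139 and 0.0603, and the wild-type controls the lowest Cdkn1a to Ccnd1 ratio, with a median of 0.128.

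Cdkn2a (ENSMUSG00000044303) encodes p16Ink4a, which blocks CDK4 and CDK6, and from another reading frame p19Arf, which holds back Mdm2. The table has 1 row for the gene, so the 2 products cannot be told apart here. Only few reads fell on it. The 6 wild-type controls held 5 counts in all, every one of them in replicate 4, and the wild-type tumour livers held 3 to 11 counts each, 41 in all. The Mdr2-/- controls held 0 to 7 counts each, 21 in all, and the Mdr2-/- tumour livers 9 to 37 counts each, 123 in all. Cdkn2a was therefore detected in 1 of 6 wild-type controls, in 5 of 6 Mdr2-/- controls and in all 12 tumour livers. In CPM the medians were 0, 0.268, 0.102 and 0.705 in the same order of groups, and the 2 Mdr2-/- groups did not overlap. Cdkn2a rose with tumours by 2.35 ± 0.56 on the log2 scale in Mdr2-/- mice (adjusted p = 0.00324), and the rise in wild type was 2.60 ± 0.78 (adjusted p = 0.0147). The difference of the tumour effects was -0.25 ± 0.80 (adjusted p = 0.844) and the genotype effects were 1.55 ± 0.86 in controls (adjusted p = 0.134) and 1.30 ± 0.51 in tumour livers (adjusted p = 0.103).

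The size of the Cdkn2a fold changes depends on how a group nearly at 0 is handled. Without wild-type control replicate 4 the other 5 wild-type controls were all at 0 counts, and the fitted wild-type tumour effect was 5.83, a value that then rests on the prior count. Without that library the genotype effect in controls was called (adjusted p = 0.00466). On the log2(TPM + 1) scale, which understates changes of low genes, the tumour effects were 0.47 in wild type (limma, adjusted p = 0.0199) and 0.90 in Mdr2-/- (adjusted p = 0.000168). The filter needed 6 libraries at 0.372 CPM or more, before TMM scaling, and Cdkn2a met this with 5 Mdr2-/- tumour livers, 1 wild-type tumour liver and 0 controls. With no filter its tumour effects were 2.26 ± 0.54 in Mdr2-/- (adjusted p = 0.00383) and 2.60 ± 0.74 in wild type (adjusted p = 0.0162), and with the stricter filter, or with only the 12 libraries of a tumour comparison, it was not tested.

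Cdkn2b (ENSMUSG00000073802), the neighbour of Cdkn2a on chromosome 4, encodes p15Ink4b, an inhibitor of the same kinases. It held 0 to 9 counts per library in the wild-type controls (24 in all), 9 to 56 in the wild-type tumour livers (150 in all), 6 to 18 in the Mdr2-/- controls (77 in all) and 25 to 88 in the Mdr2-/- tumour livers (289 in all). In CPM it lay at 0, 0.132 and 0.387 in the wild-type controls, 0.396, 0.757 and 1.90 in the wild-type tumour livers, 0.211, 0.459 and 0.601 in the Mdr2-/- controls and 0.921, 1.40 and 2.62 in the Mdr2-/- tumour livers. Tumour-bearing livers and controls did not overlap in either genotype. Cdkn2b rose with tumours by 1.75 ± 0.41 on the log2 scale in Mdr2-/- mice (adjusted p = 0.00287), the rise in wild type was 2.28 ± 0.48 (adjusted p = 0.000919), and the difference of the 2 was -0.54 ± 0.62 (adjusted p = 0.543). It was also higher in Mdr2-/- than in the wild-type controls, by 1.25 ± 0.50 (adjusted p = 0.0398), a call lost without any one of 8 of the 12 control libraries (adjusted p = 0.0543 to 0.0793). The tumour livers differed by 0.72 ± 0.39 (adjusted p = 0.257). With no filter its tumour effects were 1.66 ± 0.38 in Mdr2-/- (edgeR, adjusted p = 0.00286) and 2.27 ± 0.45 in wild type (adjusted p = 0.000483). On the log2(TPM + 1) scale the Cdkn2b tumour effects were 1.06 in Mdr2-/- (limma, adjusted p = 0.00126) and 0.91 in wild type (adjusted p = 0.00331), and the genotype effect in controls was 0.51 (adjusted p = 0.0529). With the nuclear RNA share in the model the Mdr2-/- tumour effects of Cdkn2a and Cdkn2b kept their size, at 2.29 and 1.61, with adjusted p-values of 0.0776 and 0.0764.

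Promoter sequences from RefSeq (GRCm38.p6) could be set beside 7 of the 10 genes, in 9 windows of 250 bases upstream of a start. Ccnd1, Ccnd2 and Ccne2 are named only. Windows were searched on both strands for E2F motifs (TTTCCCGC, TTTGGCGC or TTTCGCGC), the TEAD motif GGAATG, the AP-1 motif TGAGTCA and the p53 half-site consensus. TEAD factors carry YAP1 to DNA. An E2F motif lay in 1 of the 9 windows, against 1.55% of 32536 windows of all genes. It was in the more upstream of the 2 Cdkn2a windows, which is shown as the only window with an E2F motif. The motif, in capitals, begins 99 bases upstream of the start, and the window is chr4:89294620-89294869 on the minus strand.
Cdkn2a: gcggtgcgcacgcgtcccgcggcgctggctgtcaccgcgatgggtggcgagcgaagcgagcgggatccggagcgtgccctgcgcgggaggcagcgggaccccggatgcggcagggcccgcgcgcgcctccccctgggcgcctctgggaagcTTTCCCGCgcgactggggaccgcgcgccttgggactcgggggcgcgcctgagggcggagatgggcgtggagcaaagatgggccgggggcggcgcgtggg
No TEAD motif (12.6% of all windows) and no AP-1 motif (4.45%) was found in the 9 windows. A match is a description of letters and not of binding, and these data hold no measure of binding.

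A p53 half-site lay in 3 of the 9 windows, against 7.12% of all windows, and these belong to the 3 p53 targets among the members. They are shown, 5′ to 3′ with the half-sites in capitals, as the only windows with a match to these letters. Use of the half-sites by p53 was not tested. The windows are chr17:29090729-29090978 on the plus strand for Cdkn1a, chr10:117710759-117711008 on the minus strand for Mdm2 and chr11:40755287-40755536 on the minus strand for Ccng1.
Cdkn1a: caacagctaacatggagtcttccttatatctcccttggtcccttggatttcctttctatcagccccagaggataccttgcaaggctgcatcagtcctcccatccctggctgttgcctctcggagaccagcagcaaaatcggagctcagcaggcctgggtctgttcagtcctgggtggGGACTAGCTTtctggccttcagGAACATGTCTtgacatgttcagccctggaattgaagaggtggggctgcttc
Mdm2: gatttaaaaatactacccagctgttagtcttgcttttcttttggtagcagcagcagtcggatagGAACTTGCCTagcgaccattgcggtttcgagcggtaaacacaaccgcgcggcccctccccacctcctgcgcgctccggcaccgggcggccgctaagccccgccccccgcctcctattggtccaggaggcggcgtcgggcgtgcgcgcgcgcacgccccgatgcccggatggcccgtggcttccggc
Ccng1: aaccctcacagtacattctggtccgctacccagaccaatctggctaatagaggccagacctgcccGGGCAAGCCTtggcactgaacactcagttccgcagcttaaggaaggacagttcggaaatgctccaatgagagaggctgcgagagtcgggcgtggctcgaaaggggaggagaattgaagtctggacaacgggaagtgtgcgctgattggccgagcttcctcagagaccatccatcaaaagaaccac
The half-sites begin 73 and 51 bases upstream of the start for Cdkn1a, 186 bases for Mdm2 and 185 bases for Ccng1. Cdkn1a has a further window at another start, without a match.

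Mdm2 (ENSMUSG00000020184), the ubiquitin ligase that limits p53, was called in none of the 5 comparisons. It lay at 27.5, 33.9 and 40.1 CPM in the wild-type controls, 28.1, 40.0 and 41.7 CPM in the wild-type tumour livers, 34.6, 39.9 and 46.9 CPM in the Mdr2-/- controls and 32.1, 37.7 and 42.4 CPM in the Mdr2-/- tumour livers. The 4 ranges overlapped. Its log2 fold changes were -0.11 ± 0.12 (adjusted p = 0.486) with tumours in Mdr2-/-, 0.15 ± 0.12 (adjusted p = 0.347) with tumours in wild type, 0.26 ± 0.12 (adjusted p = 0.065) between the controls and 0.00 ± 0.12 (adjusted p = 0.998) between the tumour livers. The difference of the tumour effects was -0.26 ± 0.16 (adjusted p = 0.242). The difference between the controls passed the threshold in 6 of 14 other fits, and the Mdr2-/- tumour effect was -0.45 and called with the nuclear RNA share in the model (adjusted p = 0.0163).

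Ccng1 (ENSMUSG00000020326) encodes cyclin G1, a p53-induced protein that is not a partner of the G1 kinases. It lay at 55.9, 63.3 and 94.6 CPM in the wild-type controls, 82.6, 109 and 114 CPM in the wild-type tumour livers, 55.6, 71.9 and 92.4 CPM in the Mdr2-/- controls and 89.5, 97.5 and 112 CPM in the Mdr2-/- tumour livers. Tumour-bearing livers were higher in both genotypes, with an overlap of the ranges. Ccng1 rose by 0.61 ± 0.14 on the log2 scale in wild type (adjusted p = 0.00162) and by 0.46 ± 0.14 in Mdr2-/- (adjusted p = 0.0135), and the difference of -0.15 ± 0.19 did not pass the test (adjusted p = 0.574). Between the genotypes it differed by 0.09 ± 0.14 in controls (adjusted p = 0.617) and -0.07 ± 0.14 in tumour livers (adjusted p = 0.815). The Mdr2-/- effect was 0.11 with the nuclear RNA share in the model (adjusted p = 0.741) and 0.37 with no filter on low counts (adjusted p = 0.0705). When scaled by total counts alone, the Ccng1 tumour effects were 0.71 in Mdr2-/- and 0.92 in wild type, both called. Of the 3 p53 targets, Cdkn1a and Ccng1 thus rose with tumours in wild type, Ccng1 rose in Mdr2-/-, and Cdkn1a was higher in the Mdr2-/- controls.

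Trp53, which encodes p53 itself, averaged 14.7 ± 2.78 CPM (SD, n = 6) in the wild-type controls, 19.2 ± 7.0 CPM in the wild-type tumour livers, 31.6 ± 3.13 CPM in the Mdr2-/- controls and 20.7 ± 4.77 CPM in the Mdr2-/- tumour livers. It was higher in Mdr2-/- than in the wild-type controls by 1.10 ± 0.19 on the log2 scale (adjusted p = 4.53e-05) and fell with tumours in Mdr2-/- by 0.61 ± 0.19 (adjusted p = 0.0154). The wild-type tumour effect was 0.38 ± 0.19 (adjusted p = 0.124) and the difference of the 2 effects -0.99 ± 0.26 (adjusted p = 0.00923). RNA of p53 is not a measure of its activity, which is set mainly at the protein level.

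Within 3 of the 4 groups the same library stood at the end of the range for several of these genes. Wild-type control replicate 5, wild-type tumour replicate 6 and Mdr2-/- control replicate 6 had the lowest Ccne2, Cdkn1b, Mdm2 and Ccng1 levels of their groups and the highest Ccnd1. Each was also the library with the lowest nuclear RNA share of its group, at 2.91%, 2.30% and 1.74%. Mdr2-/- tumour livers showed no such library. With the nuclear RNA share as a covariate, all 5 calls of the Mdr2-/- tumour comparison were lost and Mdm2 was called lower, so that 1 member was called. That model called 960 of the 17216 genes in place of 5995. In wild type the ranges of the share overlapped only through tumour replicate 6. The other wild-type tumour livers, at 5.51% or more, lay above every wild-type control, at 5.42% or less. Group and share can thus hardly be told apart in wild type either. All 5 wild-type calls were retained with the covariate. Ccnd2 was then also called higher (0.44, edgeR, adjusted p = 0.0215) and Cdkn1b lower (-0.62, adjusted p = 0.000923). That model called 6898 genes with tumours in wild type in place of 4891. What the share stands for was not tested.

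**Figure D4:**
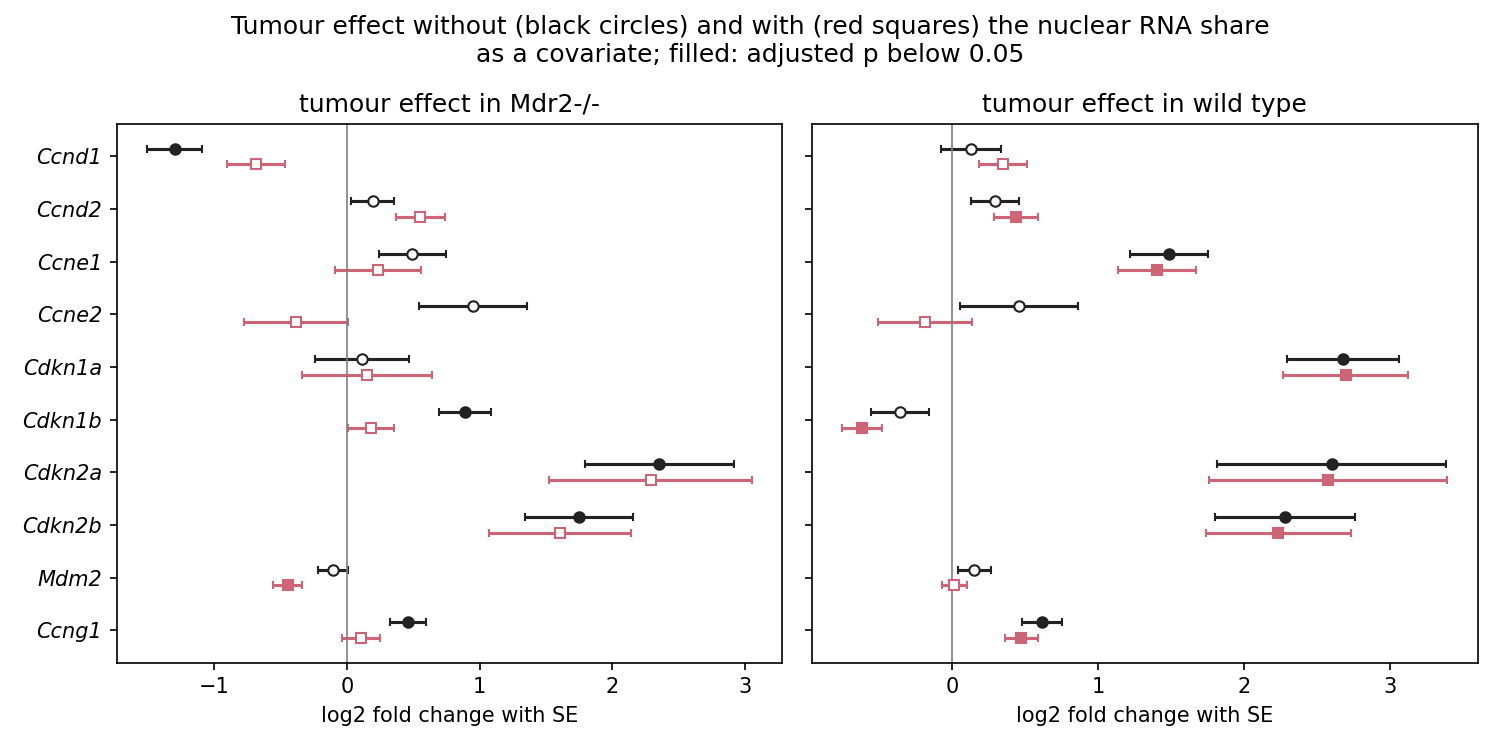
Tumour effect on each gene (log2 fold change with SE, horizontal axis) without the nuclear RNA share in the model (black circles) and with it (red squares), filled where the adjusted p is below 0.05. In Mdr2-/- the values of Cdkn2a and Cdkn2b remain near 2.29 and 1.61 with wider errors. Those of Ccnd1 and Cdkn1b move to -0.68 and 0.18, and Ccne2 changes sign. In wild type Ccne1, Cdkn1a, Cdkn2a, Cdkn2b and Ccng1 stay filled, and Ccnd2 and Cdkn1b pass the threshold only with the share.

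The rest of the pathway was followed in lists chosen with earlier results of these data known, described by counts and medians. Of 22 other genes of the G1/S machinery (CDKs, E2Fs, retinoblastoma family), 2 rose and 4 fell with tumours in Mdr2-/- with a median log2 fold change of -0.20, and 6 rose and 2 fell in wild type with a median of 0.25. E2f1, an activator of replication genes, rose in wild type by 1.87 ± 0.15 (adjusted p = 1.71e-09) and fell in Mdr2-/- by 0.41 ± 0.14 on the log2 scale, and it was higher in Mdr2-/- than in the wild-type controls by 1.79 ± 0.15. Cdk6, a partner of the D cyclins, rose in wild type by 0.84 ± 0.28, and E2f8, a repressor of the family, had a log2 fold change of -1.13 ± 0.21. In Mdr2-/-, E2f5 rose by 0.71 ± 0.25, and E2f3 and Rbl2 had log2 fold changes of -0.56 ± 0.18 and -0.50 ± 0.16. Between controls 9 of the 22 were higher and 4 lower in Mdr2-/-, with a median of 0.27. Over all tested genes 26.2% were called higher and 24.3% lower there, and the shares for the tumour comparisons are given above.

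Of 4 other CDK inhibitors, Cdkn2c (p18Ink4c) and Cdkn2d (p19Ink4d) rose with tumours in Mdr2-/-, by 0.53 ± 0.19 and 0.63 ± 0.18 on the log2 scale, and edgeR called 0 of the 4 in wild type, where 1 had an unadjusted p under 0.05. Cdkn2c was also higher in Mdr2-/- than in wild type, by 0.68 ± 0.19 in controls and by 0.79 ± 0.19 in tumour livers. The main fit called none of the 4 inhibitors among the members between tumour livers. In other fits Cdkn2a, kept by the filter only through tumour livers, was called higher there in 4. Cdkn1b was so in 3, Cdkn2b in 2 and Cdkn1a in none. Cdkn1c (p57) was lower in Mdr2-/- than in the wild-type controls, with a log2 difference of -0.92 ± 0.22.

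Of 28 other tested genes of the p53 pathway, 14 rose and 2 fell with tumours in wild type (median 0.59), whereas 6 rose and 6 fell in Mdr2-/- (median -0.08). The tumour effect was lower in Mdr2-/- than in wild type for 12 of the 28 and higher for 0, and in the Mdr2-/- controls 17 were higher and 2 lower than in the wild-type controls (median 0.69). Tnfrsf10b, a death receptor, and Eda2r, a receptor induced by p53, rose in wild type by 2.56 ± 0.23 and 2.93 ± 0.28 on the log2 scale and were higher in Mdr2-/- than in the wild-type controls by 2.95 ± 0.23 and 2.30 ± 0.27. Their tumour effects differed between genotypes by -2.64 ± 0.31 and -2.48 ± 0.36. Phlda3, an inhibitor of Akt, rose with tumours in both genotypes, by 2.64 ± 0.22 in wild type and 1.04 ± 0.20 in Mdr2-/-. Gdf15 and Btg2 fell in Mdr2-/-, by 1.08 ± 0.32 and 1.07 ± 0.28. The share called higher in wild type and in controls can be read against the 16.9% and 26.2% of all genes given above, and was not tested as a list. With tumours in Mdr2-/-, 17.9% of all genes were called higher and 17.0% lower. For the difference of the tumour effects these shares were 11.9% and 13.4%.

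Of 16 cyclins and markers of S and M phase, 15 rose with tumours in wild type (median 1.69) and 1 rose in Mdr2-/- (median 0.30), where the tumour effect was lower for 9 of the 16. In Mdr2-/- controls 15 of the 16 were higher than in the wild-type controls (median 1.93). Over all tested genes 26.2% were called higher between the controls, 16.9% with tumours in wild type and 17.9% in Mdr2-/-. The tumour effect was lower in Mdr2-/- for 13.4% of all tested genes. Cdk1, the mitotic kinase, rose in wild type by 1.91 ± 0.30 on the log2 scale and was higher in Mdr2-/- than in the wild-type controls by 2.36 ± 0.31, and its tumour effects differed by -1.71 ± 0.41. Ccna2, cyclin A2, was the gene that rose in Mdr2-/-, by 0.86 ± 0.33. The summed level of the 16 genes was 72.1 to 117 CPM in the wild-type controls, 104 to 215 CPM in the wild-type tumour livers, 130 to 201 CPM in the Mdr2-/- controls and 147 to 302 CPM in the Mdr2-/- tumour livers. Beside these, 9 of 10 cholangiocyte markers and 9 of 10 macrophage markers were higher in Mdr2-/- than in the wild-type controls, and 7 of 10 and 6 of 10 rose with tumours in wild type. Of 10 stellate cell and fibroblast markers, 7 were higher in Mdr2-/- than in wild-type controls and 6 rose with tumours in wild type. In Mdr2-/-, 6 of 10 cholangiocyte markers rose, 2 of 10 macrophage markers fell, and 3 of 10 stellate cell and fibroblast markers rose and 1 fell with tumours. These marker counts can be read against the same shares of all genes and were not tested as lists. The part of these cells in the levels of the cell cycle genes was not tested.

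**Figure D5:**
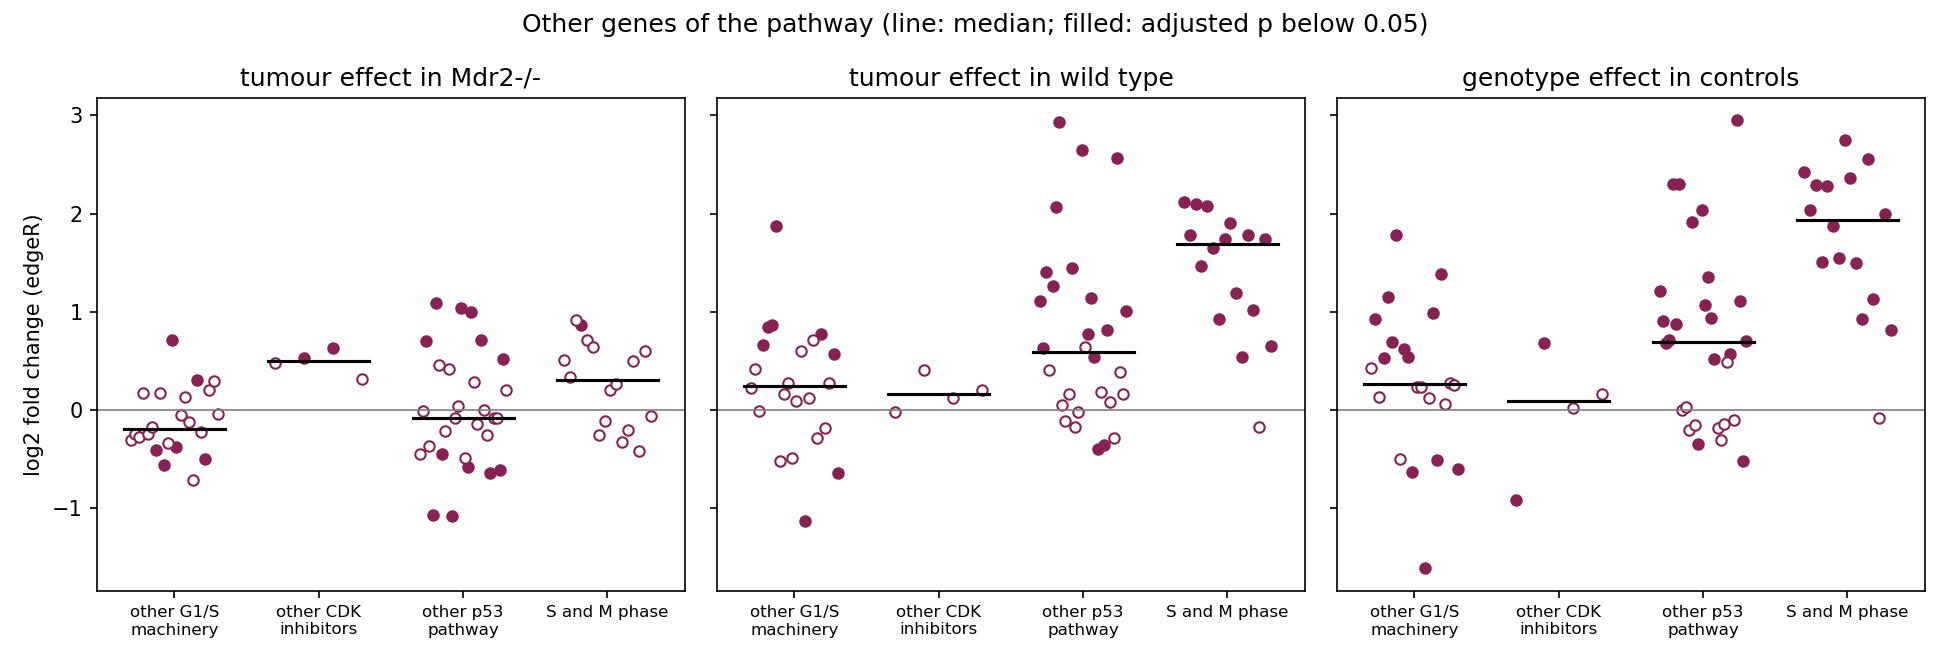
Log2 fold changes (vertical axis) of the other pathway genes, 1 point per gene, in 3 comparisons, filled where the adjusted p is below 0.05 and with a line at the list's median. The S and M phase genes have medians of 0.30 with tumours in Mdr2-/-, 1.69 with tumours in wild type and 1.93 between the controls, and the p53 pathway genes medians of -0.08, 0.59 and 0.69.

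Per unit length, Cdkn2a was the scarcest of the 10 genes in every group and Cdkn2b the next, by median TPM. In wild-type controls the median TPM was 34.4 for Ccnd1, 29.7 for Ccng1, 25.2 for Cdkn1b, 10.7 for Mdm2, 6.50 for Ccne2, 5.18 for Cdkn1a, 4.49 for Ccnd2, 0.622 for Ccne1, 0.162 for Cdkn2b and 0 for Cdkn2a. The ranges of Ccnd1, Ccng1 and Cdkn1b overlapped, as did those of Ccne2, Cdkn1a and Ccnd2. In Mdr2-/- controls every value of Ccnd1, at a median of 142 TPM, stood above the range of every other member (at most 62.5 TPM, for Cdkn1a). In Mdr2-/- tumour livers the median was 71.4 TPM for Ccng1, 64.3 for Ccnd1, 49.0 for Cdkn1a and 40.0 for Cdkn1b, 4 genes with overlapping ranges, and 1.32 for Cdkn2a, the lowest. Cdkn1a thus stood below Ccne2 in the wild-type controls and above Mdm2 in each of the other groups. TPM levels are compared here between genes of a group and not between groups, since TPM and TMM-scaled CPM put the groups on different scales.

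The genes whose pattern was most like a member's were found by Pearson's r of log2 CPM over the 24 libraries, among 12725 genes or, for Cdkn2a and Cdkn2b, 12726 genes. They are a description, since the libraries share groups and their group differences. Ccnd1 was most like Rfwd3 (r = 0.935), Parp14 (r = 0.915) and Steap3 (r = 0.911), and Ccnd2 most like Ano8 (r = 0.905). Ccne1 was most like Klf6 (r = 0.932) and Wwtr1 (r = 0.915), and Ccne2 most like Cenpx (r = 0.929). Cdkn1a was most like Fanca (r = 0.932) and Cdkn1b most like Tmx3 (r = 0.953). For the 2 Ink4 genes the closest were Stc2 (r = 0.830, Cdkn2a) and B4galt2 (r = 0.915, Cdkn2b), and for the p53 targets Sat1 (r = 0.868, Mdm2) and Rras2 (r = 0.927, Ccng1). The r of the low Cdkn2a counts was the smallest of the 10.

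In the GENCODE M21 annotation of GRCm38, Ccnd1, Ccnd2, Ccne2 and Cdkn1a overlap a gene on the opposite strand. Whether the kit marks strand is not stated in the labels, so reads within the overlapping stretches cannot be assigned to a strand here. How much of each gene these stretches cover was not measured.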

How the data were processed

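Liver RNA was depleted of ribosomal RNA and sequenced as paired ends, per the labels' protocols. The authors deposited raw read counts per gene and TPM values, which correct for gene length, for 24 libraries. The submitters' processing notes name mm39 as genome build and list DESeq2, while for the aligner, the counter and the annotation this is "not given in the sources used here". Members, gene lists and alternatives were chosen with earlier results of these data known. The labels put 6 libraries in each of 4 groups, and replicate numbers only name libraries. All 60 replicate pairs differed beyond sampling noise (chi-square per gene 26.06 to 246.7). The 174 rows without a symbol held 0.0111 to 0.0178% of the counts.

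The main test was the 2-sided quasi-likelihood F test of edgeR 4.0.16 in R 4.3.3, with TMM scaling, robust glmQLFit and a filterByExpr minimum of 10 counts, in 1 model over the 24 libraries with 5 contrasts and Benjamini-Hochberg adjustment over 17216 genes at 0.05. The scripts were tested on simulated data. The biological coefficient of variation was 0.272. Alternatives were 3 other scalings, no filter (34237 genes) or at least 1 CPM in 6 libraries (14530 genes), DESeq2 1.42.0, limma 3.58.1 (voom with quality weights, and log2 of the deposited TPM + 1 or + 0.1), only the 12 libraries compared, the number range in the sample titles or the nuclear RNA share as a covariate, no robust estimation, and fits without 2 libraries or each library. Named beside the members are the called genes of each pathway list with the largest rises and falls at 1 CPM or more (examples of these are printed), Trp53, Abcb4, Akt1, Yap1, and up to 3 genes most like each member. Promoters come from RefSeq GRCm38.p6, and no mm39 coordinates were used. Ratios and figures were made in Python 3.11.15 with numpy 2.4.6, pandas 2.3.3 and matplotlib 3.10.9.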

Additional observations from a re-analysis of the deposited data

Results flagged for a closer look

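In 56 sets of 6 libraries (each member's CPM and each ratio by group), 3 had a highest library far from the others, where chance gives about 1 in 20. Ccne1 in wild-type control replicate 6 was at 2.82 CPM, with the next library at 1.15 CPM. Cdkn2a in wild-type control replicate 4 was at 0.213 CPM, with the other 5 libraries at 0. The ratio of Ccnd2 to Ccnd1 TPM in Mdr2-/- controls reached 0.115, with the next library at 0.0675.

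The tumour effect differed between genotypes (Mdr2-/- minus wild type, edgeR, adjusted p under the threshold) for Ccnd1 by a log2 value of -1.42, for Ccne1 by -0.99, for Cdkn1a by -2.57 and for Cdkn1b by 1.25. The Ccne1 call was lost in 4 other fits and without any one of 18 libraries.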

How the results depend on the processing

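Of 50 results (10 genes in 5 comparisons) 20 were called, 12 of them in every other fit that tested them (the stricter filter left out Cdkn2a, and fits of only 12 libraries left out Cdkn2a except between tumour livers, and Cdkn2b with tumours in wild type and between controls) and in all 24 fits without 1 library, and 0 called results reversed. The 20 include both Cdkn2a tumour calls and the 12 include the wild-type one, although the filter kept this gene only through tumour livers. The nuclear RNA share covariate lowered the Mdr2-/- tumour comparison to 960 genes and 1 member, and the difference of the tumour effects to 2682 genes. It raised the wild-type tumour comparison from 4891 to 6898 genes. The title number range as a covariate lowered the wild-type tumour comparison to 3485 genes, with the 5 members called there still called. In wild type the number range can hardly be told apart from the group, so its part was not tested by that fit. Only the 12 libraries compared gave 3714 genes and 3 members with tumours in wild type, where Cdkn2a and Cdkn2b were not tested and the other 3 stayed called. The genotype effect in tumour livers had 1917 genes and 0 members. Members called there were 1 with upper-quartile factors (1964 genes), the stricter filter (1808), DESeq2 (2503), the nuclear RNA share covariate (2655), or without the 2 libraries (2702). Other settings gave 2927 genes and 3 members (total library size), 4120 and 3 (voom), 3306 and 4 (log2(TPM + 1)) and 3069 and 3 (log2(TPM + 0.1)). Fits without 1 library gave 1116 to 2751 genes and 0 to 1 members there. With total library size the split of higher against lower calls moved from 3074 and 2921 to 5565 and 924 (Mdr2-/- tumour), 2915 and 1976 to 5783 and 603 (wild-type tumour), 4512 and 4178 to 7247 and 2325 (controls) and 1228 and 689 to 2668 and 259 (tumour livers). It shifted the median of all genes by 0.24, 0.30, 0.30 and 0.25 in these comparisons. Upper-quartile factors gave 4058 and 1967 (Mdr2-/- tumour) and 2418 and 1784 (difference, 2042 and 2313). On log2(TPM + 1) and log2(TPM + 0.1) the splits were 4109 and 1036 or 3927 and 953 (Mdr2-/- tumour), 4498 and 478 or 5071 and 498 (wild-type tumour), 8121 and 1589 or 8403 and 1668 (controls) and 3053 and 253 or 2834 and 235 (tumour livers). For the difference log2(TPM + 0.1) gave 1314 and 2349, and the covariate gave 697 and 263 for the Mdr2-/- tumour effect. The cause was not tested. No paired analysis was possible because replicate numbers follow accession order and pair no libraries. At 1 CPM a gene had 16.4 to 34.2 counts, so Cdkn2a and Cdkn2b rest on few reads.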
